A study of Mus musculus with 2 samples.

Results

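Tcf15 and Fabp4 capillary endothelial cells are the cell barcodes that carried transcripts of Cdh5 (VE-cadherin, the adhesion molecule of endothelial junctions), Tcf15 (a transcription factor of heart and muscle capillaries) and Fabp4 (a fatty acid binding protein) together. They were chosen by their own counts of unique molecular identifiers (UMIs, each standing for 1 captured transcript). A barcode needed at least 1 Cdh5, at least 1 Tcf15 and at least 3 Fabp4 UMIs, fewer than 2 UMIs of Npr3 (an endocardial receptor), none of Gja5 (a connexin of arteries) and fewer than 3 of Stab2 (a scavenger receptor of liver sinusoids). The rule found 2341 cells among 14348 barcodes that passed the quality limits, which was 28.1% of the 8318 barcodes with a Cdh5 UMI. The comparison was made with the 5387 barcodes that had a Cdh5 UMI and no Tcf15 UMI.

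The cells came from 1 droplet library in which liver and heart endothelial cells of C57BL/6 pups were pooled after each of 6 samples had been stained with its own antibody hashtag. The samples were control heart, iSuRe-Cre heart, iSuRe-HadCre heart, control liver, iSuRe-Cre liver and iSuRe-HadCre liver. Pups received a single 40 mg/kg dose of 4-hydroxytamoxifen on postnatal day 3 and were dissected 3 days later, with their age given as postnatal day 6 to 7. Cells were sorted as CD31-positive and MbTomato-positive, while the design text also speaks of sorting by the absence of Tomato. The iSuRe-Cre and iSuRe-HadCre groups carried the allele of that name with Cdh5-CreERT2, a tamoxifen-dependent Cre driven by the endothelial Cdh5 promoter. Which cells had recombined was not tested here. After recombination the iSuRe-Cre allele expresses MbTomato and Cre permanently, and the iSuRe-HadCre allele expresses Cre transiently before its MbTomato reporter comes on. A figure legend of the study reads its single-cell data as strong deletion of Notch1 in cells with either iSuRe allele. The sample labels state no floxed Notch1 allele. The genotype of the controls and the number of pups behind a hashtag are not given in the sources used here. Each group was therefore 1 sample, no comparison has a replicate check, and all intervals below are 95% intervals for counting error only.

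In the capillaries of heart, skeletal muscle and fat, endothelial cells carry fatty acids from the blood to the tissue. Tcf15 forms dimers with the homeobox factor Meox2, and the pair is known to raise the expression of fatty acid carriers such as Cd36 and Fabp4 in heart capillaries. Lipoprotein lipase, held on the luminal surface by Gpihbp1, releases the fatty acids from triglyceride-rich particles. Liver sinusoidal endothelium and the endocardium use other programmes, with scavenger receptors in the first and valve-forming factors in the second. Tcf15 lies at chr2:152143561-152149097 on the plus strand of GRCm38, Fabp4 at chr3:10204088-10208576 on the minus strand and Meox2 at chr12:37108540-37179534 on the plus strand, all annotated by GENCODE as protein-coding genes.

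The members had a median of 6958 UMIs per cell (lowest 2001, highest 73897), against 4783 in the barcodes without Tcf15. A member held a median of 2 Tcf15 UMIs, with 1037 of the 2341 members at exactly 1, and a median of 63 Fabp4 and 6 Cdh5 UMIs. The limits lie within a continuous range. The 1037 members with 1 Tcf15 UMI had 162 CPM of Meox2 (CPM, the UMIs of a gene summed over cells per 1000000 gene UMIs), and the 3173 barcodes that met every other limit with no Tcf15 UMI had 92.2 CPM. At the Fabp4 limit, the 68 members with 3 to 4 UMIs had 133 CPM of Meox2 and 163 CPM of Cd36, and the 106 barcodes with 1 to 2 UMIs had 49.3 and 345 CPM. The exclusions removed 343 of 2684 candidates, 134 by Gja5, 160 by Stab2 and 87 by Npr3, some by more than 1 gene. Free RNA, read from barcodes with 10 to 100 UMIs, held 2753 CPM of Fabp4 and 67.2 CPM of Tcf15, so both genes that chose the members were also in the background of the library.

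The hashtags placed 1139 of the members in a group. These were 316 control heart, 324 iSuRe-Cre heart and 285 iSuRe-HadCre heart cells, and 43 control liver, 120 iSuRe-Cre liver and 51 iSuRe-HadCre liver cells. A further 666 were called hashtag doublets, 533 had no call and 3 had too few hashtag counts to be called. Of the assigned members, 81.2% (exact binomial interval 78.8 to 83.4%) carried a heart hashtag, against 40.2% (37.97 to 42.4%) of the assigned barcodes without Tcf15. Among the Cdh5 barcodes of each heart sample, members made up 44.3% (40.6 to 48.1%) for control, 59.1% (54.9 to 63.3%) for iSuRe-Cre and 52.3% (48.0 to 56.6%) for iSuRe-HadCre. In the liver samples the shares were 16.9% (12.5 to 22.1%), 13.5% (11.3 to 15.9%) and 16.4% (12.5 to 21.0%) in the same order. The median depth of heart members was 7783, 15156 and 6703 UMIs, and a deeper barcode reaches a limit of 1 Tcf15 UMI more readily, so the shares of the groups were not compared further. The sort, which the labels do not give by group, can also set them.

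Many hashtag calls rested on few counts. The assigned hashtag had fewer than 25 UMIs in 45.6%, 29.9% and 42.8% of the control, iSuRe-Cre and iSuRe-HadCre heart members, in 76.7% and 78.4% of the control and iSuRe-HadCre liver members, and in none of the iSuRe-Cre liver members, whose hashtag had a median of 27 UMIs over all members against 1 to 3 for the other 5. With at least 25 UMIs required, the heart share was 79.9% in the members and 15.1% in the barcodes without Tcf15. The latter kept 136 heart and 765 liver barcodes. This limit fell unevenly, since it removed no iSuRe-Cre liver member and part of every other group. The shares under it are therefore no check of the calls. Scrublet, a caller of doublets from expression, marked 0 of 14348 barcodes and so gave no usable call.

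The library also held 5 multiplexing tags for which the labels name no sample, and these split the members. The median sum of the 5 tags was 94 UMIs in the members, 52 in members with a heart hashtag, 303.5 in members with a liver hashtag, 262 without a call and 206 in hashtag doublets. Fewer than 100 tag UMIs were counted in 1182 members (50.5%), called low-tag below, and 100 or more in the other 1159 (high-tag). The low-tag share was 76.3% with a heart hashtag, 706 of 925, and close to it in each heart sample, with 242 of 316 control, 251 of 324 iSuRe-Cre and 213 of 285 iSuRe-HadCre cells. With a liver hashtag 72 of 214 were low-tag, and without Tcf15 1728 of 5387 (32.1%). The limit of 100 was set after the values were seen, where the histogram of all members starts to dip.

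**Figure D1:**
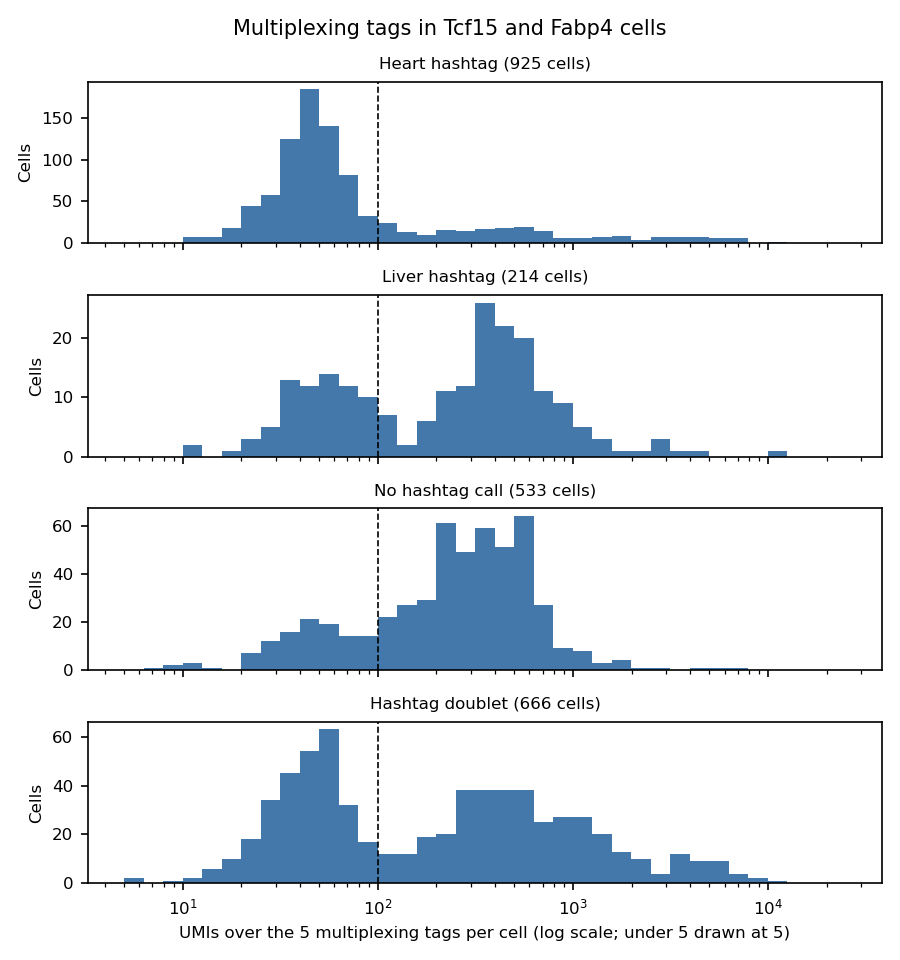
Histograms of the summed UMIs of the 5 multiplexing tags per member (x axis, log scale, values under 5 drawn at 5; y axis, number of cells) for members with a heart hashtag, with a liver hashtag, without a call and called hashtag doublets, with a dashed line at 100 UMIs. Most of the 925 heart-hashtag cells lie left of the line (706), and most liver-hashtag and uncalled cells lie right of it.

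High-tag and low-tag members differed in endothelial genes and in genes of other cell types. Cdh5 stood at 1311 CPM in low-tag and 538 CPM in high-tag members, and Pecam1 (CD31, the antigen of the sort) at 753 and 308 CPM. The factor Meox2 was at 360 and 156 CPM, and the fatty acid transporter Cd36 at 1432 and 490 CPM. Genes of other cell types went the opposite way. The fetal plasma protein Afp was at 47.3 and 728 CPM, the cartilage collagen Col2a1 at 4.52 and 74.2 CPM, the keratin Krt14 at 2.51 and 46.0 CPM and the macrophage complement gene C1qa at 1.005 and 39.2 CPM. A change is counted here when the ratio of CPM values, with 10 CPM added to both, passes 2-fold. Of 9535 genes with at least 200 UMIs, 234 (2.45%) were higher and 550 (5.77%) lower in low-tag members. All 12 hepatocyte genes, 7 of 7 fibroblast genes with enough UMIs and 5 of 5 keratinocyte genes were among the lower, and 15 of 24 pan-endothelial genes were among the higher. The summed hepatocyte list reached 183 CPM in low-tag and 2962 CPM in high-tag members, the fibroblast list 116 and 1206 CPM, the macrophage list 37.8 and 285 CPM. The neutrophil list was at 999 and 1536 CPM, with S100a9 (a calcium-binding alarmin) its most abundant gene in both. Results below are given for all members and for low-tag members alone.

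The label was checked against endothelial markers. Pecam1 was detected in 83.2% of members and in 97.0% of low-tag members. After each cell was thinned to 2000 UMIs the shares were 58.5% and 75.5%. Keratinocyte and hepatocyte barcodes, with median depths of 23493 and 4959 UMIs against 9320 in low-tag members, should lack endothelial genes and serve as background. They held no Cdh5 UMI, so this background may be too low for endothelial genes. Pecam1 was detected there in 21.5% and 27.4% unthinned and in 3.17% and 12.7% thinned. Meox2 was detected there in 4.62% and 8.89% unthinned and in 0.479% and 5.27% thinned, against 57.1% and 31.3% in members and 72.9% and 42.2% in low-tag members. Both genes were thus above this background in low-tag members. The high-tag members had lower levels of endothelial genes beside genes of other cell types, so for them the name stands for the rule and not for a cell type shown by markers. For low-tag members the check covers Pecam1 and Meox2 over the whole set. It does not show that each of them is a capillary cell, since some of their clusters below carried arterial, large-vein or mural genes.

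Leiden clustering of the members without the rule genes, transgenes and cell cycle genes gave 23 clusters, and the same split ran through them. In 10 clusters the median tag sum was under 100. They held 1225 cells (52.3%), with Cdh5 between 837 and 1915 CPM and Pecam1 between 506 and 1225 CPM. The other 13 clusters held 1116 cells (47.7%), with tag medians from 267 to 1550 UMIs, Cdh5 from 238 to 747 CPM and Pecam1 from 117 to 383 CPM. By at least 3 markers among their 10 leading genes, clusters 10 and 21 were hepatocyte-like, 12 neural-like, 13 neutrophil-like, 14 macrophage-like and 16 keratinocyte-like, all with high tag medians. Cluster 22, with a low tag median, was mural-like by the same count. Cluster 20 had 3 hepatocyte markers beside the haemoglobin genes Hba-a1 and Hbb-bt and was given no name. Clusters 3, 4 and 8 also had 3 markers of a list among these genes, of the tip cell (sprouting endothelium), cell cycle and arterial lists. These lists were not used to name clusters. The largest cluster (312 cells) was led by the cartilage collagens Col2a1, Col9a3 and Col11a1 and has no name here, nor have the remaining ones.

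**Figure D2:**
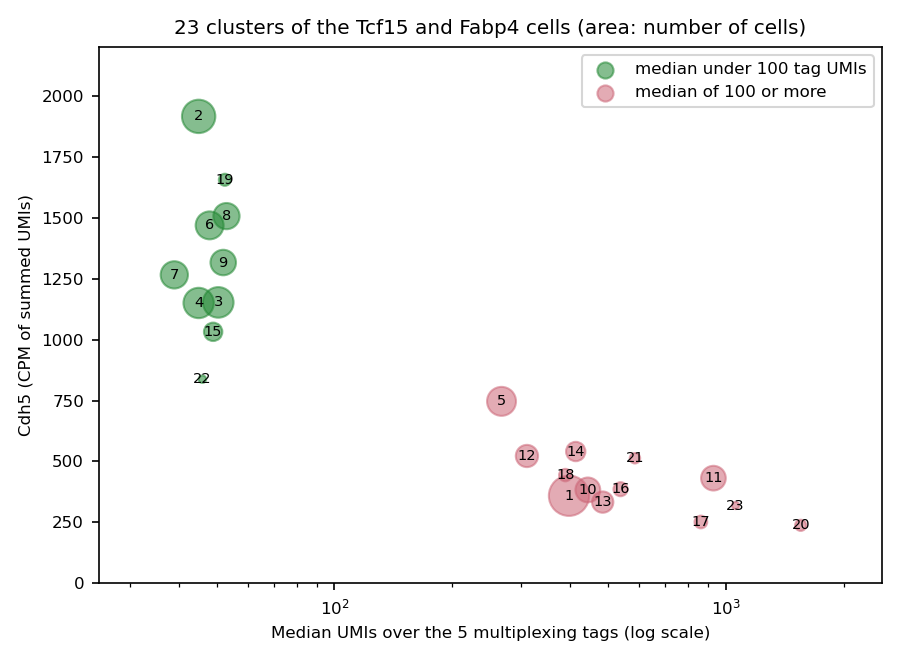
Each circle is 1 of the 23 clusters of members, with its number inside and its area proportional to its number of cells, placed by the median UMIs over the 5 multiplexing tags (x axis, log scale) and by Cdh5 in CPM of summed UMIs (y axis). The 10 clusters with a median under 100 tag UMIs lie between 837 and 1915 CPM, the other 13 between 238 and 747 CPM.

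The leading genes of the 10 low-tag clusters differed. Cluster 2 (214 cells) was led by Pdgfd, Btnl9 and Dach1, cluster 6 (150 cells) by the carbonic anhydrase Car4, the glycerol channel Aqp7 and the redox regulator Txnip, and cluster 8 (132 cells) by the chemokine Cxcl12, with the arteriolar connexin Gja4 and the other arterial genes Fbln5 and Hey1 among its 10 leading genes. Cluster 4 (177 cells) was led by the histone genes H2ac8 and H3c3 and the proliferation gene Mki67, although the cell cycle lists had been left out of the clustering. Cluster 3 (180 cells) was led by Ccl21a, Adm (adrenomedullin) and Kcne3, with the growth factor Gdf15 and the cell cycle inhibitor Cdkn1a next. The tip cell genes among its 10 leading genes were Adm, Kcne3 and Apln. Cluster 7 (143 cells) was led by the interferon-induced chemokines Cxcl10 and Cxcl9 and by Ifit2, Ifit3 and Rsad2, and cluster 9 (125 cells) by Ccl2, Kcnc2 and Tmem108. Cluster 15 (65 cells) was led by Rspo3, Vwf (von Willebrand factor) and Adamtsl1, and 35 of its cells carried the iSuRe-Cre liver hashtag. Cluster 19 (28 cells) was led by Scn7a, Hpgd and Tmem100, and cluster 22 (11 cells, median 22563 UMIs) by Rgs5 and the guanylate cyclase subunit Gucy1a1, with the mural cell genes Kcnj8, Abcc9 and Pdgfrb among its 10 leading genes. Meox2 ran from 69.1 to 728 CPM over these 10 clusters and from 14.6 to 192 CPM over the other 13.

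Against the Cdh5 barcodes without Tcf15, the members held more of most capillary genes and of some fatty acid handling genes, and less of most liver sinusoidal genes. The members were picked by their own counts, so these are descriptions. Of 12162 genes with at least 200 UMIs, 126 (1.04%) were higher and 177 (1.46%) lower in the members, and the median log2 ratio was -0.09. Composition scaling (TMM) moved all ratios of this comparison up by 0.19 on the log2 scale and turned the split to 202 higher and 113 lower. Among low-tag barcodes on both sides 107 of 9792 genes (1.09%) were higher and 453 (4.63%) lower, with a median of -0.10. With the limits applied to barcodes thinned to 2000 UMIs, 25 genes were higher in place of 126, and members were deeper than the barcodes without Tcf15. RNA of other cell types also differed between the sides. In members and barcodes without Tcf15 the hepatocyte list summed to 1366 and 4303 CPM over all and to 183 and 480 CPM among low-tag barcodes. The low-tag sums were 999 and 3779 CPM for the neutrophil list, 37.8 and 245 CPM for the macrophage list and 116 and 399 CPM for the fibroblast list. Their part in the calls was not tested.

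Meox2, the partner of Tcf15, stood at 273 CPM in members and 50.6 CPM without Tcf15, a ratio of 5.39 (5.13 to 5.67), and at 360 and 58.5 CPM among low-tag barcodes. Rbp7, a retinol binding protein of capillaries, was at 376 and 64.9 CPM, a ratio of 5.79 (5.54 to 6.04). With limits applied to barcodes thinned to 2000 UMIs, the log2 ratio fell from 2.22 to 1.28 for Meox2 and from 2.36 to 1.50 for Rbp7. Ablim3 (an actin-binding LIM protein) was at 153 and 24.8 CPM and the butyrophilin-like gene Btnl9 at 159 and 32.6 CPM. These were among the 10 genes with the largest ratio outside the rule, together with Slc28a2 (a nucleoside transporter), the matrix gene Sparcl1, the monoglyceride lipase Mgll, the interferon-induced Rsad2, the transcription factor Wt1 and the surface antigen Ly6c1. Mgll, which releases fatty acids from monoglycerides, was at 604 and 151 CPM. All 10 stayed past 2-fold among low-tag barcodes. Other alternatives ended 3 of these calls. Rsad2 fell to a log2 ratio of 0.86 with thinned limits, and Slc28a2 fell to 0.97 and Wt1 to 0.93 with 50 CPM added.

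Of the 20 capillary genes, 12 were higher and 1 lower in the members (median log2 ratio 1.15), with 8 higher and 2 lower among low-tag barcodes (median 0.92). The shares over all tested genes were 1.04% and 1.46%, and 1.09% and 4.63% among low-tag barcodes. Cd36 stood at 1031 CPM against 352 CPM, a ratio of 2.93 (2.87 to 2.99), and Gpihbp1 at 1006 against 397 CPM. The lower gene was Plvap, of fenestral diaphragms, at 58.8 against 142 CPM, and among low-tag barcodes the water channel Aqp1 joined it at 122 against 322 CPM. The fatty acid handling list had 9 of 28 tested genes higher and none lower (median 0.26), and 8 of 26 higher among low-tag barcodes (median 0.54). Beside Cd36, Gpihbp1, Meox2 and Mgll these included lipoprotein lipase (Lpl, 106 against 39.1 CPM), the nuclear receptor Pparg (69.7 against 18.5 CPM), the lipase inhibitor Angptl4 (79.0 against 23.6 CPM), caveolin (Cav1, 1033 against 305 CPM) and Aqp7 (32.8 against 6.88 CPM). Gpihbp1 fell just short of 2-fold among low-tag barcodes, at 1302 against 657 CPM. Members and the other barcodes differed in their share of heart cells, so the lists were also summed within each heart sample. Among low-tag barcodes the capillary list summed to 11102 CPM in members and 6848 CPM without Tcf15 over all samples, and to 12094 and 7868 CPM in control heart, 11061 and 9195 CPM in iSuRe-Cre heart and 13462 and 10482 CPM in iSuRe-HadCre heart. For the fatty acid handling list the low-tag sums were 10818 and 4772 CPM in control heart, 8022 and 7045 CPM in iSuRe-Cre heart and 8774 and 5586 CPM in iSuRe-HadCre heart. Both lists were higher in members in each of the 3 samples, with the smallest ratios in iSuRe-Cre. Cd36 alone does not separate the 2 sides, since it was detected in 84.2% of members and in 63.6% of barcodes without Tcf15 (65.3% and 43.2% when thinned), against 15.4% (2.45% thinned) in keratinocyte barcodes.

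**Figure D3:**
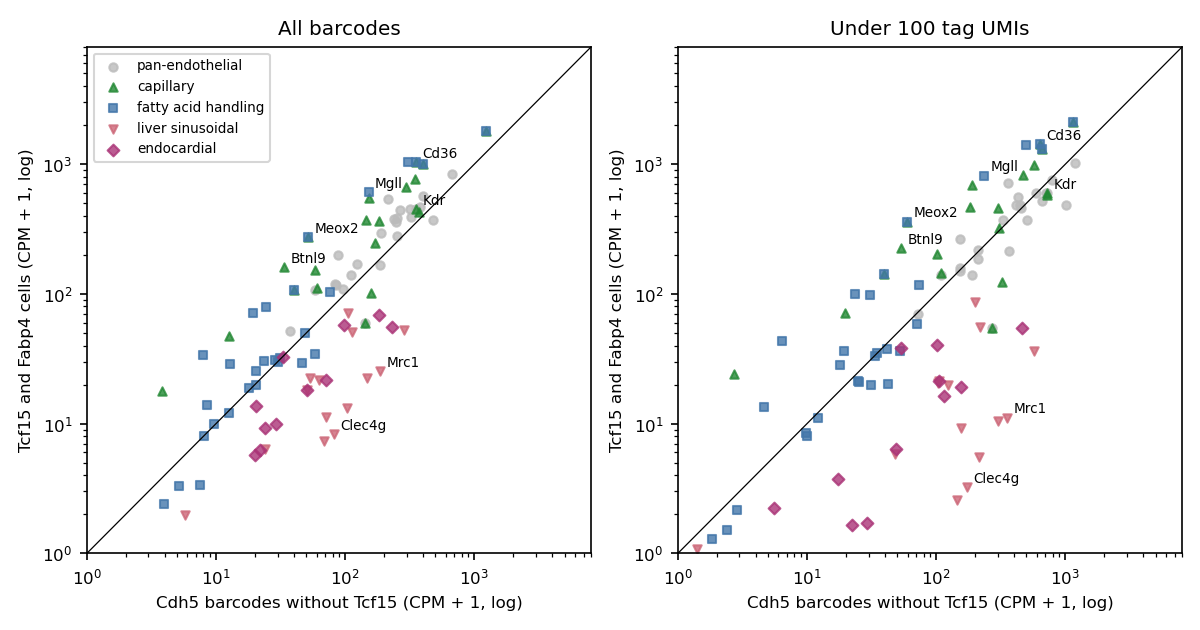
Level of each gene of 5 lists in Cdh5 barcodes without Tcf15 (x axis) and in members (y axis), both as CPM plus 1 on log scales, for all barcodes (left) and for barcodes with fewer than 100 tag UMIs (right); the line marks equal levels. Meox2 and Cd36 lie above the line in both panels, and the sinusoidal genes lie further below it in the right panel, where 13 of 13 tested were lower.

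Most liver sinusoidal genes and part of the endocardial genes were lower in the members, while most arterial genes were not called. Of the liver sinusoidal genes 11 of 14 were lower in the members (median -1.61), and 13 of 13 tested among low-tag barcodes (median -3.17). Of all tested genes 1.46% were lower, and 4.63% among low-tag barcodes. A heart hashtag was carried by 81.2% of assigned members and 40.2% of assigned barcodes without Tcf15. The sinusoidal list was not summed within heart samples, so the part of this mix was not tested. The mannose receptor Mrc1 stood at 24.4 against 186 CPM, the lectin Clec4g at 7.26 against 80.9 CPM, the nuclease Dnase1l3 at 12.2 against 103 CPM and Lyve1 at 21.4 against 148 CPM. Other genes among the 10 lowest were Ibsp, Scn7a, Hpgd, Maf, Fcgr2b and F8 (coagulation factor VIII), the sodium channel Scn7a at 71.9 against 445 CPM. The exclusion by Stab2 applied to the members alone. Without the exclusions the log2 ratio shrank from -2.51 to -1.49 for Mrc1, from -2.27 to -1.43 for Maf and from -2.01 to -1.14 for F8. Ibsp, a bone sialoprotein, was the lowest over all barcodes at 7.67 against 104 CPM, and its log2 ratio shrank to -0.42 among low-tag barcodes. The endocardial list had 6 of 11 lower (9 of 10 among low-tag barcodes) and the arterial list 2 of 16 (5 of 16), with sums of 1132 CPM in members and 1448 CPM without Tcf15.

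Set against the 3 excluded kinds among Cdh5 barcodes without Tcf15, the members were higher in most capillary genes. These were 608 sinusoidal barcodes (at least 3 Stab2 UMIs), 299 endocardial (at least 2 Npr3 UMIs) and 176 large-vessel barcodes (at least 1 Gja5 UMI), of which 19 to 26 were shared between each pair of kinds. Each kind was picked by the gene that members had to lack or hold little of, and without Tcf15. Lower counts of the genes of a kind in members thus follow in part from the selection, and the counts below are descriptions. Against sinusoidal barcodes 14 of 20 capillary genes were higher and 12 of 13 sinusoidal genes lower, beside 2.62% of all 10162 tested genes higher and 3.87% lower. Against endocardial barcodes 15 of 20 capillary genes were higher and 8 of 11 endocardial genes lower, beside 3.08% and 4.58%. The endocardial barcodes also carried RNA of other cell types, with 10666 CPM of the hepatocyte list and 1963 CPM of the fibroblast list beside 2032 CPM of the endocardial list, against 1366, 579.6 and 288 CPM in members. Among low-tag endocardial barcodes the hepatocyte list was at 230 CPM and the fibroblast list at 1362 CPM. Sinusoidal and large-vessel barcodes held 4373 and 4793 CPM of the neutrophil list, against 1228 CPM in members. Among low-tag barcodes the values were 6059, 116 and 999 CPM in the same order. The macrophage list was at 561 CPM in low-tag sinusoidal barcodes and 37.8 CPM in low-tag members. The part of RNA of other cell types in the counts of this comparison was not tested. Against large-vessel barcodes 13 of 20 were higher and 14 of 15 arterial genes lower, beside 1.58% and 3.02%. Among low-tag barcodes the 3 kinds held 436, 177 and 99 barcodes, and the capillary counts were 14, 14 and 12 of 20, beside 5.02%, 4.09% and 4.18% of all tested genes higher and 5.28%, 5.51% and 4.52% lower. In these low-tag sets Meox2 stood at 8.24 CPM in sinusoidal, 25.3 CPM in endocardial and 55.7 CPM in large-vessel barcodes, and at 360 CPM in members. Gpihbp1 was at 1000.0 CPM in low-tag sinusoidal barcodes and 1302 CPM in low-tag members. Kdr, the main VEGF receptor, was higher in the sinusoidal barcodes, at 1202 against 599 CPM.

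Of 15 tip cell genes, which mark sprouting endothelium, 6 were higher and none lower (3 of 14 among low-tag barcodes), with the peptide ligand Apln at 112 against 41.4 CPM and Adm at 63.0 against 17.4 CPM. Over all tested genes 1.04% were higher, and 1.09% among low-tag barcodes. Within the low-tag barcodes of control heart Apln did not stand apart, at 107 in members and 106 CPM without Tcf15, and it was at 172 and 93.3 CPM with iSuRe-Cre and at 194 and 158 CPM with iSuRe-HadCre. The tip cell list summed there to 4801 and 4007 CPM in control, 4407 and 2632 CPM with iSuRe-Cre and 6564 and 5066 CPM with iSuRe-HadCre. The tip cell marker Esm1 was at 6.47 against 4.53 CPM. Of 25 interferon-stimulated genes, a list added after values were seen, 13 were higher (8 among low-tag barcodes), with the ubiquitin-like modifier Isg15 at 686 against 227 CPM. The interferon list summed to 4387 CPM in members and 1933 CPM without Tcf15, but the iSuRe-Cre heart sample, where the list was highest, gave 13.8% of the members and 3.60% of the barcodes without Tcf15. Within control heart the sums were 1447 and 1068 CPM, within iSuRe-Cre heart 8359 and 4238 CPM and within iSuRe-HadCre heart 2520 and 1520 CPM. Among low-tag control heart barcodes they were 1432 in members and 2005 CPM without Tcf15, the opposite order. Meox2 was higher in members within each heart sample, at 428 against 72.1 CPM in control, 267 against 83.3 CPM with iSuRe-Cre and 374 against 163 CPM with iSuRe-HadCre. Among low-tag barcodes it was at 492 against 136, 284 against 110 and 497 against 279 CPM in the same order, and the last pair lay within 2-fold. The 16 Notch pathway genes tested gave 0 calls in either direction, both over all and among the 14 tested in low-tag barcodes. At the shares over all tested genes a list of this size would hold few calls, so this count says little about the pathway.

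The heart members allowed the iSuRe groups to be set against control, a contrast that the rule did not use. Summed UMIs were 3350761 for control, 5723663 for iSuRe-Cre and 2615172 for iSuRe-HadCre, and genes with at least 50 UMIs over a pair were used. In iSuRe-HadCre, 119 of 9385 genes (1.27%) were higher and 14 (0.149%) lower than in control. In iSuRe-Cre, 165 of 10039 (1.64%) were higher and 87 (0.867%) lower. Among low-tag cells the counts were 94 of 8032 (1.17%) and 14 (0.174%) in iSuRe-HadCre, and 193 of 9038 (2.14%) and 111 (1.23%) in iSuRe-Cre. Both comparisons share the same control cells. The heart samples lay in different clusters. In the order control, iSuRe-Cre, iSuRe-HadCre, cluster 2 held 42, 4 and 89 heart members, cluster 6 held 79, 17 and 22, and cluster 9 held 65, 6 and 23. Cluster 7 held 0, 76 and 11, cluster 4 held 13, 72 and 26, cluster 3 held 14, 62 and 25, and cluster 8 held 35, 24 and 28. A difference in the summed level can therefore come from another mix of cells or from another level within cells, which cannot be told apart here. The clusters were built from the same genes, so their sizes were not compared. The genes below are given for the 3 samples in the same order.

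Notch1, the receptor at chr2:26457903-26516663 on the minus strand of GRCm38, stood at 116, 9.61 and 17.6 CPM. Its ratio to control was 0.0832 (0.0615 to 0.111) with iSuRe-Cre and 0.152 (0.110 to 0.207) with iSuRe-HadCre, and among low-tag cells the levels were 132, 5.25 and 12.8 CPM. It was the only 1 of 14 tested Notch pathway genes called lower in iSuRe-HadCre, with none higher (median log2 ratio 0.07 beside 0.09 over all genes). In iSuRe-Cre 4 of 15 were lower, beside 0.867% of all tested genes. These were Notch1, the endothelial receptor Notch4 (44.8, 3.84 and 46.3 CPM) and the effectors Hes1 (273, 114 and 189 CPM) and Hey1 (36.1, 11.9 and 47.4 CPM). Notch4 thus differed between the iSuRe samples by a ratio of 12.0 (7.60 to 19.9), iSuRe-HadCre over iSuRe-Cre, while Notch1 was low in both.

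Kdr was at 184, 539 and 827 CPM, 2.92 times control (2.68 to 3.19) with iSuRe-Cre and 4.49 times (4.10 to 4.91) with iSuRe-HadCre, and the direct comparison of the iSuRe samples gave 1.53 (1.45 to 1.62). Over all its cells, cluster 2 had 1008 CPM of Kdr, against 379 CPM in cluster 6 and 323 CPM in cluster 9. The chemokine Cxcl12 was at 774, 829 and 1578 CPM and passed 2-fold over control in iSuRe-HadCre, at 2.04 times (1.94 to 2.14), with a ratio of 1.90 (1.82 to 1.98) to iSuRe-Cre. Cxcl12 and Kdr were the capillary genes called higher there, with none of 19 lower. Composition scaling moved this comparison by -0.14 on the log2 scale, which takes Cxcl12 below 2-fold. In iSuRe-Cre, 3 of 20 capillary genes were higher (Kdr, the surface antigen Ly6a and Rgs5) and 3 lower (Cd36, Car4 and the protease inhibitor Timp4). The shares of all tested genes were 1.64% higher and 0.867% lower. Ly6a was at 440, 1076 and 551 CPM and Rgs5, a regulator of G protein signalling common in pericytes, at 8.36, 87.7 and 5.74 CPM. The mural list as a whole summed to 138, 106 and 90.6 CPM over all and to 43.5, 103 and 53.8 CPM among low-tag cells, so that its highest sample was control in the first and iSuRe-Cre in the second. The mural-like cluster 22 held 5 iSuRe-Cre heart cells and none of the other heart samples, and 330 of the 502 Rgs5 UMIs of iSuRe-Cre heart. Without it Rgs5 was at 30.8 CPM with iSuRe-Cre, still above the other heart samples.

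Of the fatty acid handling genes, Cd36, Pparg and Aqp7 were lower in iSuRe-Cre than in control. Cd36 was at 2082, 873 and 1579 CPM, 0.419 times control (0.404 to 0.435) with iSuRe-Cre and 0.758 times (0.729 to 0.788) with iSuRe-HadCre, and among low-tag cells at 2457, 986 and 2138 CPM. Pparg was at 138, 63.1 and 97.1 CPM and Aqp7 at 83.6, 18.9 and 41.7 CPM. These 3 were the called members of the fatty acid list in iSuRe-Cre (3 of 26 lower, none higher), and none of 24 was called in iSuRe-HadCre. Of all tested genes 0.867% were lower in iSuRe-Cre. Composition scaling moved the iSuRe-Cre comparison by 0.09 on the log2 scale, which takes Pparg within 2-fold. Gpihbp1 was at 1144, 1270 and 1009 CPM, and Lpl at 190, 106 and 146 CPM. The list as a whole summed to 9404, 7251 and 6983 CPM, and to 10818, 8022 and 8774 CPM among low-tag cells. Meox2 was at 428, 267 and 374 CPM, 0.623 times control (0.579 to 0.670) with iSuRe-Cre and 0.874 times (0.805 to 0.949) with iSuRe-HadCre, with 492, 284 and 497 CPM among low-tag cells. With limits applied to thinned barcodes the direction in iSuRe-HadCre turned, to a log2 ratio of 0.10. Tcf15 and Fabp4 themselves, which chose the cells, were at 410, 298 and 377 CPM and at 19501, 14745 and 10554 CPM.

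**Figure D4:**
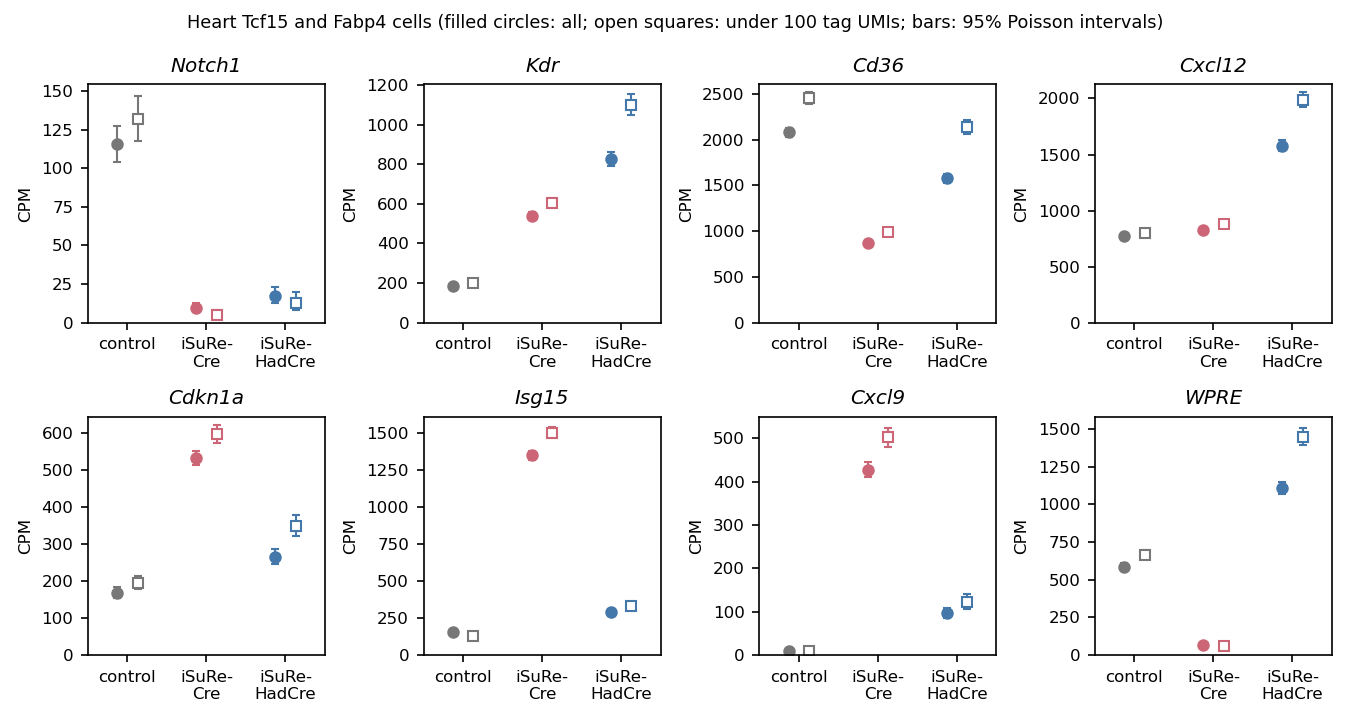
CPM of summed UMIs (y axes, each from 0) of 8 transcripts in heart members of the control, iSuRe-Cre and iSuRe-HadCre samples, 1 sample per group, for all members (filled circles) and low-tag members (open squares), with bars for 95% exact Poisson intervals. Notch1 is low in both iSuRe samples, Isg15 and Cxcl9 are highest in iSuRe-Cre, and Kdr, Cxcl12 and WPRE are highest in iSuRe-HadCre.

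Interferon-stimulated genes had the most calls of the lists in iSuRe-Cre heart members, where 1.64% of all tested genes were higher. The list was added after values were seen in these same data, so its counts and its rank among the lists are descriptions only. Of 25 genes 23 were higher than in control, both over all and low-tag cells (median log2 ratio 2.16 and 2.30, beside -0.05 and -0.06 over all genes). In iSuRe-HadCre 5 of 23 were higher, or 10 of 23 among low-tag cells (median 0.69 and 0.91). Isg15 was at 156, 1350 and 289 CPM, 8.64 times control (7.90 to 9.45) with iSuRe-Cre and 1.85 times (1.65 to 2.07) with iSuRe-HadCre. The chemokine Cxcl9 was at 9.25, 428 and 96.4 CPM, and Cxcl10 at 34.9, 582 and 90.6 CPM. Ifit3, an interferon-induced antiviral gene, was at 22.98, 319 and 56.2 CPM. With these 4 genes Ccl5, another chemokine, completed the 5 highest in iSuRe-Cre, at 5.07, 107 and 3.82 CPM, but its log2 ratio fell from 2.95 to 0.45 when at least 25 UMIs of the hashtag were required. Isg15, Cxcl9, Cxcl10 and Ifit3 stayed past 2-fold in each of the 19 alternatives run on them. The liver members had the same order, with list sums of 1138, 3511 and 1877 CPM, and of 1567, 4199 and 2446 CPM among the few low-tag liver members. Control liver held 43 cells, under the 50 set for a comparison. Most control and iSuRe-HadCre liver calls rested on fewer than 25 hashtag UMIs, and weakly stained heart cells may be among them. The liver order is therefore no independent check. The macrophage list summed to 47.5, 91.4 and 39.0 CPM, and to 5.70, 5.72 and 32.4 CPM among low-tag cells, where 23 of 25 interferon-stimulated genes were called in iSuRe-Cre as well.

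Cdkn1a (p21), a cell cycle inhibitor induced by p53, was at 169, 532 and 265 CPM, 3.16 times control (2.89 to 3.46) with iSuRe-Cre and 1.57 times (1.41 to 1.76) with iSuRe-HadCre. It was the only 1 of 15 p53 target genes called in iSuRe-Cre (2 of 15 among low-tag cells), and none of 15 was called in iSuRe-HadCre. Of 25 genes of the G2 and M phases of the cell cycle, 16 were called higher in iSuRe-Cre (median log2 ratio 1.14) and 8 in iSuRe-HadCre (median 0.95), and none lower. Beside these stood 1.64% and 1.27% of all tested genes called higher. Mki67 was at 76.1, 188 and 185 CPM. Thinned to 2000 UMIs, cells with at least 2 UMIs over the G2 and M list made up 21.4%, 38.2% and 27.7% of the heart members, or 12.6%, 32.4% and 18.5% of low-tag heart members. Free RNA held 2139 CPM of this list and high-tag members reached 70.5% against 24.9% in low-tag members, so the share was not read as a share of dividing cells.

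The flow-induced factor Klf2 was at 1307, 495 and 971 CPM and its relative Klf4 at 358, 158 and 416 CPM. In iSuRe-Cre 4 of 32 endothelial transcription factors were lower with none higher, beside 0.867% of all tested genes lower and 1.64% higher. Of 14 arterial genes 3 were lower in iSuRe-Cre, and none of 15 was called in iSuRe-HadCre. The 5 lowest named genes in iSuRe-Cre were Notch1, Ltbp4 (a matrix protein that binds latent TGF-beta, 250, 54.2 and 193 CPM), Notch4, Pltp (phospholipid transfer protein, 126, 23.9 and 55.1 CPM) and the anion transporter Slc26a10 (188, 44.0 and 132 CPM).

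Set directly against iSuRe-Cre, iSuRe-HadCre heart members had 147 of 10030 genes (1.47%) higher and 71 (0.708%) lower, and low-tag members 310 of 8833 (3.51%) higher and 97 (1.1%) lower. Composition scaling moved this comparison down by 0.25 on the log2 scale. Of the interferon-stimulated genes 17 of 25 were lower in iSuRe-HadCre (15 of 25 among low-tag cells), and of the arterial genes 6 of 14 were higher (8 of 14). Of the capillary genes none of 20 was higher and 2 were lower over all, while 4 were higher and 2 lower among low-tag cells, where Cd36 was at 2138 CPM in iSuRe-HadCre and 986 CPM in iSuRe-Cre.

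In iSuRe-HadCre the 5 highest named genes were Cxcl9, Col2a1, Kdr, Rps18-ps6 and Grm7, and the 5 lowest Notch1, Igf1, Tagln, Nts and Prtn3. The growth factor Igf1 was low in both iSuRe samples, at 163, 50.3 and 45.5 CPM, and the neuropeptide Nts was at 321, 246 and 117 CPM. Prtn3 was at 24.5 CPM in control and 3.82 CPM with iSuRe-HadCre. Its log2 ratio of -1.32 turned in 3 of 19 alternatives, up to 0.89 when the highest hashtag was at least 3 times the next. The actin-binding protein Tagln was at 37.0, 13.3 and 6.5 CPM, and at 6.51, 11.0 and 1.83 CPM among low-tag cells, where its log2 ratio in iSuRe-HadCre shrank from -1.51 to -0.48. Col2a1, Grm7 and the hepatocyte list were also lower among low-tag cells. Col2a1 was at 11.3, 18.2 and 86.8 CPM over all and at 3.66, 0.954 and 5.50 CPM among low-tag cells. The glutamate receptor Grm7 went from 2.69, 4.37 and 40.1 CPM to 1.63, 0.954 and 0.612 CPM. The hepatocyte list summed to 649, 184 and 1406 CPM over all and to 100.5, 114 and 120 CPM among low-tag cells. None of its genes was called in low-tag cells in either comparison, against 3 of 10 higher in iSuRe-HadCre and 7 of 10 lower in iSuRe-Cre over all. Rps18-ps6, a ribosomal pseudogene whose reads may be shared with its parent gene, was at 1.49, 0.699 and 38.6 CPM, with 48.3 CPM in low-tag iSuRe-HadCre cells. The heat shock gene Hspa1a was at 117, 131 and 310 CPM.

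Transcripts of the transgenes checked the labels in part. WPRE, a viral element placed after the reporter in many transgenes, was at 585, 68.8 and 1106 CPM, and Tomato at 94.3, 24.5 and 296 CPM. The control heart sample thus held more of both than iSuRe-Cre. Free RNA held 160 CPM of WPRE and 30.3 CPM of Tomato, and keratinocyte barcodes 112 and 15.1 CPM, so the iSuRe-Cre values of both lay below free RNA and were read as no more than background. Cre was at 30.7, 30.4 and 38.6 CPM, and the Sv40 polyadenylation sequence at 59.99, 129 and 34.03 CPM. Which allele gives each sequence is not given in the sources used here for the control. Notch1, deleted in cells with either iSuRe allele according to the figure legend, was lower in both iSuRe samples than in control.

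The 214 liver members were few, and 43 cells in control liver fell under the 50 set for a comparison. Low-tag iSuRe-Cre liver members (44 cells) were unlike low-tag heart members. They held 45.9 CPM of Meox2, 426 CPM of Cd36, 553 CPM of Plvap and 699.5 CPM of Vwf, against 12.2 to 22.2 CPM of Plvap in the 3 heart samples. The 12 control and 16 iSuRe-HadCre liver members with few tags held 433 and 387 CPM of Meox2, closer to the 284 to 497 CPM of the heart samples. Most control and iSuRe-HadCre liver hashtags rested on fewer than 25 UMIs, so whether these cells came from liver cannot be told apart from weak staining of heart cells.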

How the data were processed

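Gene and hashtag UMIs of 1 library were analysed. The authors deposited raw, unfiltered UMI counts for 2755147 barcodes and 21951 genes, made with Cell Ranger 7.1.0 on GRCm38/mm10 per the labels, with transgene sequences added and hashtags counted as features. Barcodes were kept with 2000 to 75000 gene UMIs, over 500 genes and under 5% each of mitochondrial and haemoglobin UMIs, which left 14348. Hashtag groups were assigned with HTODemux of Seurat 5.3.0 (quantile 0.99, over 4 counts over 6 hashtags), giving 4859 singlets, 2640 doublets and 6800 negatives. The 5 multiplexing tags and 2 further hashtags have no group in the labels. Scrublet was run in scanpy 1.11.5.

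UMIs were summed per set and divided by all gene UMIs to give CPM. With 1 sample per group no test across samples exists, so no p-values are given. Levels have exact Poisson, shares exact binomial and ratios exact conditional intervals (scipy 1.17.1, Python 3.11.15, R 4.3.3) at 95%. PCR and capture errors and differences between pups are not covered. Calls are ratios past 2-fold with 10 CPM added, among genes with at least 200 UMIs (50 for the heart samples); the added CPM shrink ratios of low genes. In simulated counts of the comparison with barcodes lacking Tcf15, 12178 of 21951 genes were tested, 77.5% of 200 genes changed 4-fold were called and 0 unchanged genes were, and 96.0% of intervals held the true ratio. Both sides were drawn there as Poisson counts from a shared profile, without variation between cells, tags or tissues. The simulation therefore checks the computation and gives no error rate for the calls in the data. Shares are also given after thinning to 2000 UMIs, as the mean over all possible draws. Clusters are Leiden clusters on 30 principal components of 2000 variable genes. The members and gene lists were chosen with earlier results of these data known. Named genes are those of the lists, the 10 highest and 10 lowest against barcodes without Tcf15, the 5 highest and 5 lowest of each heart comparison and the leading genes of clusters, with predicted genes and transgenes left out of the ranking. The interferon-stimulated list, the limit of 100 tag UMIs and Notch4, Hspa1a, Mki67 and Klf4 as examples were taken after values were seen. Alternatives changed the limits, the added CPM, the scaling, the hashtag calls, the depth range, free RNA subtraction, the tag limit and the mural-like cluster.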

Additional observations from a re-analysis of the deposited data

Results flagged for a closer look

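The 5 multiplexing tags carry no sample in the labels, yet their median in liver-hashtag, uncalled and doublet members was above the control heart median of 54 UMIs. That median was 303.5 UMIs over all liver hashtags, with 348 in control liver, 280.5 in iSuRe-Cre liver and 310 in iSuRe-HadCre liver, 262 in members without a hashtag call and 206 in hashtag doublets. HTO304 and HTO308, the hashtags with no sample in the labels, reached at least 25 UMIs in 57 and 90 members.

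Against control heart, 5 transcripts were past 2-fold in opposite directions in the iSuRe samples, and WPRE lay on opposite sides with 1 of its ratios within 2-fold. The difference was not tested. The log2 ratios were 1.15 in iSuRe-HadCre and -1.21 in iSuRe-Cre for the apolipoprotein Apoa2, 1.60 and -1.78 for Afp, 1.12 and -1.28 for the steroid-binding Serpina6, 1.69 and -1.52 for the retinol carrier Rbp4, 1.55 and -1.60 for Tomato, and 0.91 and -2.92 for WPRE. Afp was at 22.8, 26.7 and 39.8 CPM in low-tag control, iSuRe-Cre and iSuRe-HadCre heart members, where it was not called.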

How the results depend on the processing

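No paired analysis was possible because each group was 1 sample and the labels number no replicates. Of 58 named ratios, 46 passed 2-fold, 43 of these kept their direction and 36 stayed past 2-fold in every alternative run on them, which was 17 for a ratio to barcodes without Tcf15 and 19 for a heart ratio. Of 26 alternatives in all 24 were planned and 2, the tag limit and leaving out cluster 22 in the heart comparisons, were added after the data were seen. The share of Cdh5 barcodes (28.1%) became 29.4% with at least 1 Fabp4 UMI, 15.7% with at least 2 Tcf15 UMIs, 32.3% without the exclusions, 17.4% with limits applied to thinned barcodes, 26.2% without hashtag doublets and 36.4% with fewer than 100 tag UMIs. The number of members became 1304 with 2 Tcf15 UMIs, 1064 thinned and 1182 with few tags. Genes higher than without Tcf15 (126) were 25 thinned, 239 with 1 CPM added, 42 with 50 CPM, 202 with TMM, 74 at 4000 to 12000 UMIs and 81 by mean CPM per cell. Genes lower (177) were 371 with 2 Tcf15 UMIs, 90 without exclusions, 287 without doublets, 841 with 1 CPM, 48 with 50 CPM, 113 with TMM, 343 after free RNA subtraction, 67 by mean CPM and 453 with few tags. In iSuRe-HadCre heart, higher genes (119) were 281 with 1 CPM, and lower genes (14) were 25 without exclusions, 27 thinned, 39 with 1 CPM and 24 both with quantile 0.95 and with WPRE above 0.5. In iSuRe-Cre heart, higher genes (165) were 363 and lower genes (87) 227 with 1 CPM, and lower genes 133 under 6000 genes per cell. Members per group became 69 for iSuRe-Cre liver with quantile 0.95; 100, 116 and 73 for control, iSuRe-Cre and iSuRe-HadCre heart and 6 for each of control and iSuRe-HadCre liver when the highest hashtag was 3 times the next; 172 and 163 for control and iSuRe-HadCre heart and 10 and 11 for control and iSuRe-HadCre liver with 25 hashtag UMIs; and 12, 44 and 16 for the livers with few tags. The heart share (81.2%) became 68.6% under the 3-times rule and 90.7% with few tags. The share with at least 2 G2 and M UMIs (47.5%) was 68.6% unthinned, 62.4% at 1 UMI, 38.9% at 3 and 24.9% with few tags. The log2 ratio of iSuRe-HadCre to control turned for Col2a1 (-0.02 thinned, -0.05 under 6000 genes), Grm7 (-0.07 thinned, -0.13 with few tags) and Prtn3 (0.24 thinned, 0.89 under the 3-times rule, 0.45 with 25 hashtag UMIs); the cause was not tested. Of the ratios within 2-fold, those of Gpihbp1 (-0.18, up to 0.12), Meox2 (-0.19, up to 0.10) and Tcf15 (-0.12, up to 0.09) turned as well, each highest with thinned limits. TMM moved that comparison by -0.14 and turned none of these ratios. Genes with few UMIs, and all liver groups, are limited by counting depth.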
